A study of Mus musculus with 35 samples.

Results

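The unfolded protein response (UPR) genes described here are the 10 mouse genes Hspa5, Hsp90b1, Pdia4, Sdf2l1, Dnajb9, Herpud1, Xbp1, Atf4, Ddit3 and Trib3. They were chosen by symbol, not by a measured value, and each matched 1 of the 53379 Ensembl identifiers in the table of counts per gene. RNA was sequenced from 2 kinds of myeloid-derived suppressor cells (MDSC) of female C57BL/6 mice with orthotopic pancreatic tumors grown from T110299, a single cell line derived from a mouse pancreatic tumor. Polymorphonuclear MDSC (PMN-MDSC) were sorted as CD11b+Ly6CloLy6G+ cells and monocytic MDSC (M-MDSC) as CD11b+Ly6ChiLy6G- cells, each from spleen and from tumor. The mice received either 50 µg of poly(I:C)c, a synthetic double-stranded RNA complexed with polyethylenimine, intravenously on days 18 and 20 after tumor implantation, or no active agent (labelled untreated, with glucose given as the control). Groups held 4 libraries each, except PMN-MDSC from spleens and M-MDSC from tumors of treated mice with 3 each. Whole tumor tissue of untreated mice (bulk tumor) gave a further 4 libraries, so that 34 libraries in 9 groups were compared. Every animal bore a tumor, and no tumor-free control was among these samples.

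The UPR adjusts the capacity of the endoplasmic reticulum (ER) to its load of unfolded protein. It has 3 branches that start at the ER membrane sensors IRE1 (Ern1), which splices Xbp1 mRNA, PERK (Eif2ak3), which phosphorylates eIF2alpha and so favours translation of Atf4, and ATF6, which is cleaved to a transcription factor. XBP1 and ATF6 are known to raise ER chaperones and degradation factors, and ATF4 raises Ddit3 (CHOP) and Trib3. In secreting cells such as plasma cells and pancreatic acinar cells the chaperone arm is constitutively high, and in tumor myeloid cells PERK, IRE1 and CHOP are known as regulators of suppressive function. Because eIF2alpha is also phosphorylated by PKR (Eif2ak2), a sensor of double-stranded RNA, ATF4 and CHOP can be induced without ER stress. Counts per gene measure mRNA level and neither Xbp1 splicing nor the translation of Atf4.

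The promoter stretches of 3 members are shown because, among the 10 members, these hold the letters of elements through which ATF6 and XBP1 are known to act. RefSeq windows from 250 bases before to 50 bases after the annotated start (GRCm38.p6, 32851 windows) were found for all 10 members, 1 each. The searches covered both strands for the ER stress response element (ERSE, CCAAT and CCACG with 9 bases between them), ERSE-II (ATTGGNCCACG) and a CEBP-ATF response element (CARE, TGATGNAA). Capitals mark the letters of each match, and an element on the other strand appears as its reverse complement.
Hspa5, chr2:34772000-34772068 (plus strand, 69 bases): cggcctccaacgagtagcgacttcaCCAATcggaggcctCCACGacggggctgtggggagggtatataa
Hsp90b1, chr10:86705508-86705681 (minus strand, 174 bases): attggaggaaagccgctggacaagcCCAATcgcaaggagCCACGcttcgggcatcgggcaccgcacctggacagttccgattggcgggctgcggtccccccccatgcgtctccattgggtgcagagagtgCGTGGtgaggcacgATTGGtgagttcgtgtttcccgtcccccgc
Herpud1, chr8:94386292-94386412 (plus strand, 121 bases): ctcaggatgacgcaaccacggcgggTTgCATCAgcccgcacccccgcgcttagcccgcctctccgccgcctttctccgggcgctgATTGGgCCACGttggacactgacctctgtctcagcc
The Hspa5 window held 1 ERSE at -65 to -47 relative to the RefSeq start, while the GENCODE gene model starts further upstream. Hsp90b1 held an ERSE at -212 to -194 and another on the other strand at -107 to -89. Herpud1 held an ERSE-II at -52 to -42 and a CARE on the other strand at -112 to -105. Trib3 held a CARE on the other strand at 15 to 22, after its start. An ERSE was found in 0.119% of all windows, an ERSE-II in 0.0365% and a CARE in 3.97%. The windows of Ddit3, Atf4, Xbp1, Dnajb9, Pdia4 and Sdf2l1 held none of these letters.

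Library totals ran from 793070 to 4357105 counts in the 30 MDSC libraries and from 3771590 to 8886115 in bulk tumor, and 1 M-MDSC library of a treated tumor with 10 counts was left out. Summed CPM (counts scaled to a common library size of 1e6 counts) of 12 interferon-stimulated genes did not overlap between treated and untreated libraries of any cell type and compartment, for example 764.6 to 954.1 against 3985 to 8253 CPM in spleen M-MDSC. Library 4 of treated spleen M-MDSC stood apart, with a summed 18750 CPM over 13 B cell and plasma cell markers against 275.3 to 494.8 in the 4 untreated libraries and 205.5 to 599.7 in its 3 companions. PMN-MDSC from tumor went partly against their label. Their 10 neutrophil markers summed to 1441 to 4640 CPM, against 21350 to 42190 in spleen PMN-MDSC and 2698 to 6266 in spleen M-MDSC, and Ly6g, the sorting antigen's gene, averaged 2.9 ± 4.12 CPM (SD, n = 4) against 68.1 ± 26.6 in spleen. Spleens were strained and their red cells lysed, whereas tumors were dissociated with a dissociation kit, so compartment and cell preparation cannot be told apart. Each library is a pool of cells, in which fewer cells of a type and less RNA per cell cannot be told apart either. The sample titles give each library of a group a number of its own, which recurs across cell types and compartments, and the study counts its samples as mice. The columns of counts carry a running number that is in no label, and they were not assigned to mice by order alone. The tests thus treated libraries of different cell types and compartments as independent although they can come from the same mice.

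The level of each member across the groups is given first, as CPM scaled by the trimmed mean of M values (TMM).

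**Figure D1:**
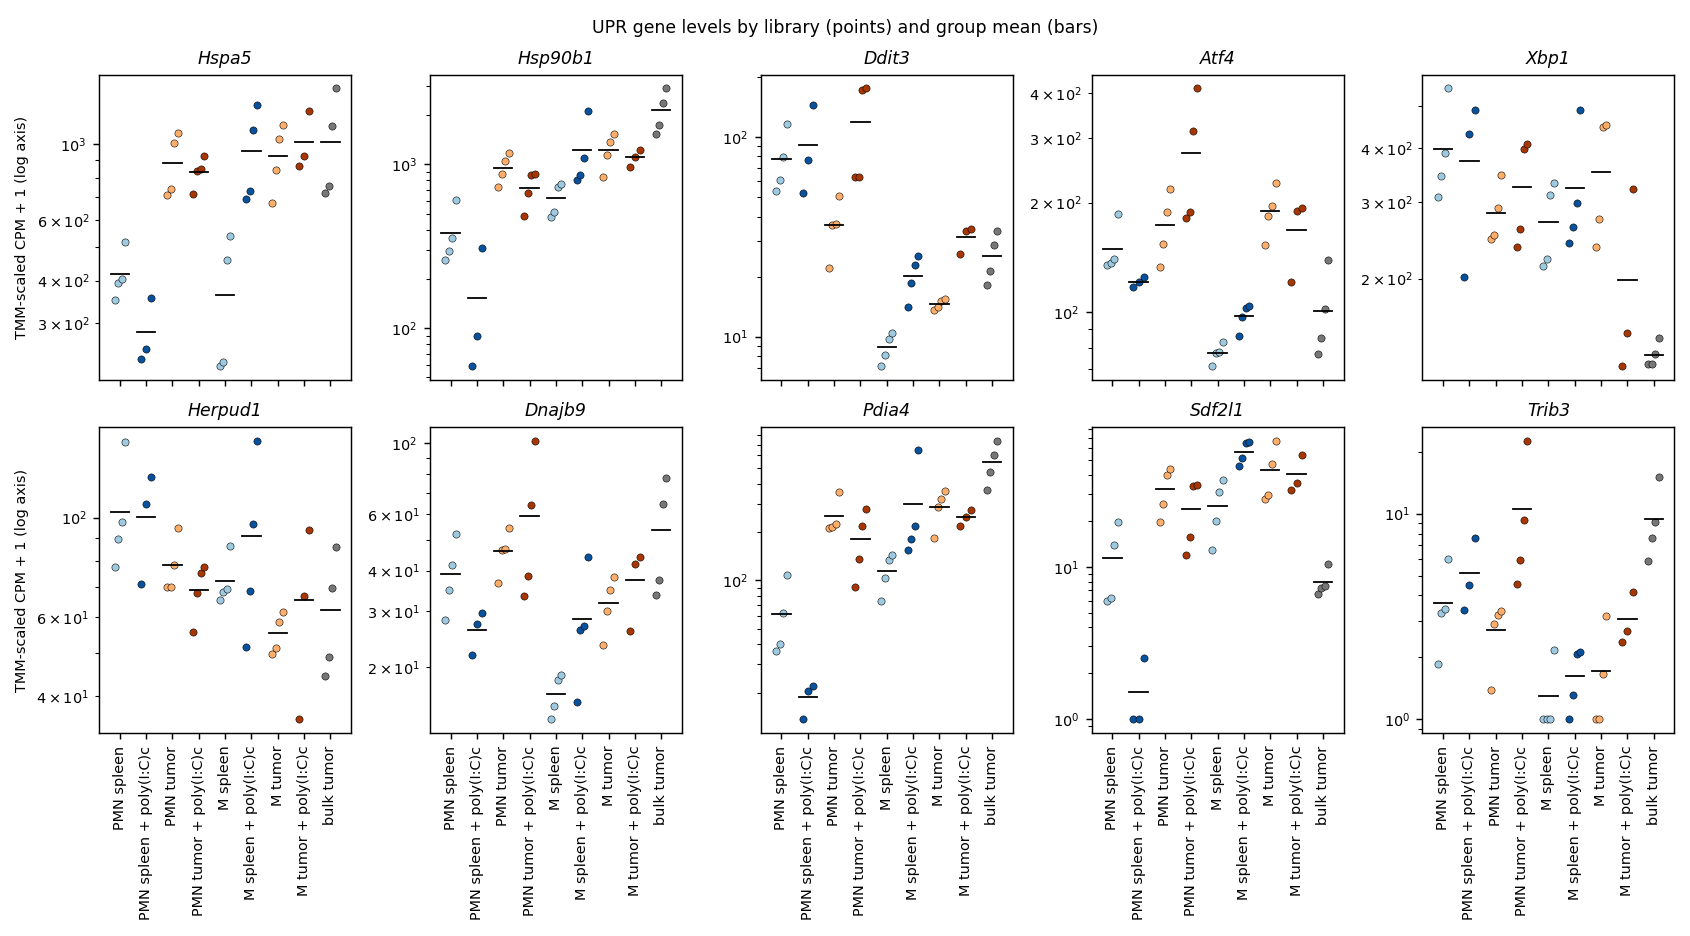
TMM-scaled CPM plus 1 (log axis) of the 10 UPR genes in each of 34 libraries (points), with group means (bars) for PMN-MDSC and M-MDSC from spleen and tumor, untreated or given poly(I:C)c, and for bulk tumor. Hspa5 was at most 539.6 CPM in all libraries of the 3 lowest groups, and Trib3 was at most 21.5 CPM.

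Hspa5, the ER Hsp70 chaperone BiP (ENSMUSG00000026864.13, chromosome 2, 34771970 to 34777547, GRCm38), averaged 281 ± 65.3 (SD, n = 3) CPM in treated spleen PMN-MDSC, 363 ± 161 (SD, n = 4) in untreated spleen M-MDSC and 416 ± 71.2 (SD, n = 4) in untreated spleen PMN-MDSC. In the other 6 groups its mean lay between 830.4 ± 86.5 (SD, n = 4) in treated tumor PMN-MDSC and 1015 ± 348 (SD, n = 4) in bulk tumor, and neighbours in that order differed by less than their SDs. Hsp90b1, the ER Hsp90 chaperone GRP94 (ENSMUSG00000020048.13, chromosome 10, 86690209 to 86705509), had a wider range. It ran from 152 ± 137 (SD, n = 3) CPM in treated spleen PMN-MDSC over 379 ± 156 (SD, n = 4) in untreated spleen PMN-MDSC and 619.6 ± 144 (SD, n = 4) in untreated spleen M-MDSC to 2136 ± 628 (SD, n = 4) in bulk tumor. The 3 groups next to bulk tumor, which were untreated tumor, treated spleen and treated tumor M-MDSC, averaged 1104 to 1222 CPM and did not differ beyond their SDs. Pdia4, a protein disulfide isomerase (ENSMUSG00000025823.9, chromosome 6, 47796141 to 47813430), spanned 17.8 ± 4.45 (SD, n = 3) to 543 ± 159.8 (SD, n = 4) CPM between the same extremes. Sdf2l1, a cofactor of BiP (ENSMUSG00000022769.7, chromosome 16, 17130138 to 17132383), instead was highest in treated spleen M-MDSC at 55.9 ± 9.86 (SD, n = 4) CPM and had only 0, 0 and 3 counts in the 3 treated spleen PMN-MDSC libraries. In bulk tumor Sdf2l1 was at 6.94 ± 1.67 (SD, n = 4) CPM, so the co-chaperone and the chaperones had different orders of groups.

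Dnajb9, a J-domain cochaperone of BiP also known as ERdj4 (ENSMUSG00000014905.4, chromosome 12, 44205559 to 44210326), ran from 15.6 ± 2.46 (SD, n = 4) CPM in untreated spleen M-MDSC to 58.2 ± 31 (SD, n = 4) in treated tumor PMN-MDSC. Herpud1, an ER membrane factor of ER-associated degradation (ENSMUSG00000031770.16, chromosome 8, 94386438 to 94395377), had the narrowest range of the 10 as a ratio of group means, from 54.3 ± 5.77 (SD, n = 4) CPM in untreated tumor M-MDSC to 102 ± 30.5 (SD, n = 4) in untreated spleen PMN-MDSC. Xbp1, the target of IRE1 (ENSMUSG00000020484.18, chromosome 11, 5520659 to 5525893), averaged 269 to 396 CPM in 7 of the MDSC groups, 198 ± 107 (SD, n = 3) in treated tumor M-MDSC and 133 ± 8.95 (SD, n = 4) in bulk tumor. Atf4, the transcription factor translated when eIF2alpha is phosphorylated (ENSMUSG00000042406.7, chromosome 15, 80255184 to 80257541), was lowest in untreated spleen M-MDSC at 76.4 ± 4.92 (SD, n = 4) CPM and highest in treated tumor PMN-MDSC at 273 ± 110.1 (SD, n = 4). Ddit3, which encodes the pro-apoptotic factor CHOP (ENSMUSG00000025408.15, chromosome 10, 127290774 to 127296288), had the same extremes, from 7.83 ± 1.52 (SD, n = 4) to 117 ± 63.8 (SD, n = 4) CPM. Its exons overlap those of Mars on the opposite strand by 68 bases, and counting was by strand. Trib3, a pseudokinase that is a target of ATF4 and CHOP (ENSMUSG00000032715.9, chromosome 2, 152337422 to 152344032), had 0 to 44 counts in MDSC libraries and 19 to 140 in bulk tumor. A count of 3 corresponded to 0.564 to 3.85 CPM in the MDSC libraries, so Trib3 was at or near the counting floor in most of them. Such floors cover counting error only, since PCR copies were counted without molecular identifiers.

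Per length of exon, as CPM per kilobase of exon (FPKM), the members' order differed between cell types. In untreated spleen PMN-MDSC Xbp1 had the highest level, 122 ± 32.6 (SD, n = 4) FPKM, followed by Hspa5 at 98.4 ± 16.8 and Hsp90b1 at 93.9 ± 38.7, and these 3 did not differ beyond their SDs. Ddit3 reached 44.6 ± 16.3 FPKM there, level with Herpud1 at 43.7 ± 13.1 and above Pdia4 at 25.4 ± 13.7. In untreated spleen M-MDSC, in contrast, Hsp90b1 led with 154 ± 35.8 (SD, n = 4) FPKM, Hspa5 and Xbp1 followed at 85.9 ± 38 and 82.7 ± 18.6, and Ddit3 was the lowest but Trib3 at 4.57 ± 0.886. Untreated tumor PMN-MDSC and tumor M-MDSC both had Hsp90b1 first, at 237 ± 49.7 (SD, n = 4) and 303 ± 73.6 FPKM, and Hspa5 second, at 209 ± 44 and 218 ± 49.1. In bulk tumor Hsp90b1 stood at 529.8 ± 156 (SD, n = 4) FPKM, Hspa5 and Pdia4 at 239.9 ± 82.4 and 226 ± 66.6, and the other 7 at 42.4 or less.

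The first comparison asked how the UPR genes differed between tumor and spleen. In untreated mice the ER chaperones were higher in tumor than in spleen in both cell types: Hspa5 2.4-fold in PMN-MDSC and 2.55-fold in M-MDSC, Hsp90b1 2.81-fold and 1.97-fold, and Pdia4 4.54-fold and 2.54-fold. Ddit3 went in opposite directions, lower in tumor PMN-MDSC and higher in tumor M-MDSC than in the spleen. Atf4 was 2.46-fold higher in tumor M-MDSC and did not pass the test in PMN-MDSC. Whether the cell types differed in these contrasts was not tested. In the edgeR quasi-likelihood test with Benjamini-Hochberg adjustment over all genes tested, 4 of the 9 members tested in untreated PMN-MDSC were called higher in tumor (adjusted p below 0.05) and 1 lower, where 29.4% of all 7971 genes were called higher and 29.7% lower. In untreated M-MDSC 6 of 9 were called higher and 0 lower, where 15.7% and 12.7% of 8298 genes were. The members' median log2 fold change was 0.41 in PMN-MDSC and 0.98 in M-MDSC, beside 0.01 and 0.02 over all genes.

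**Figure D2:**
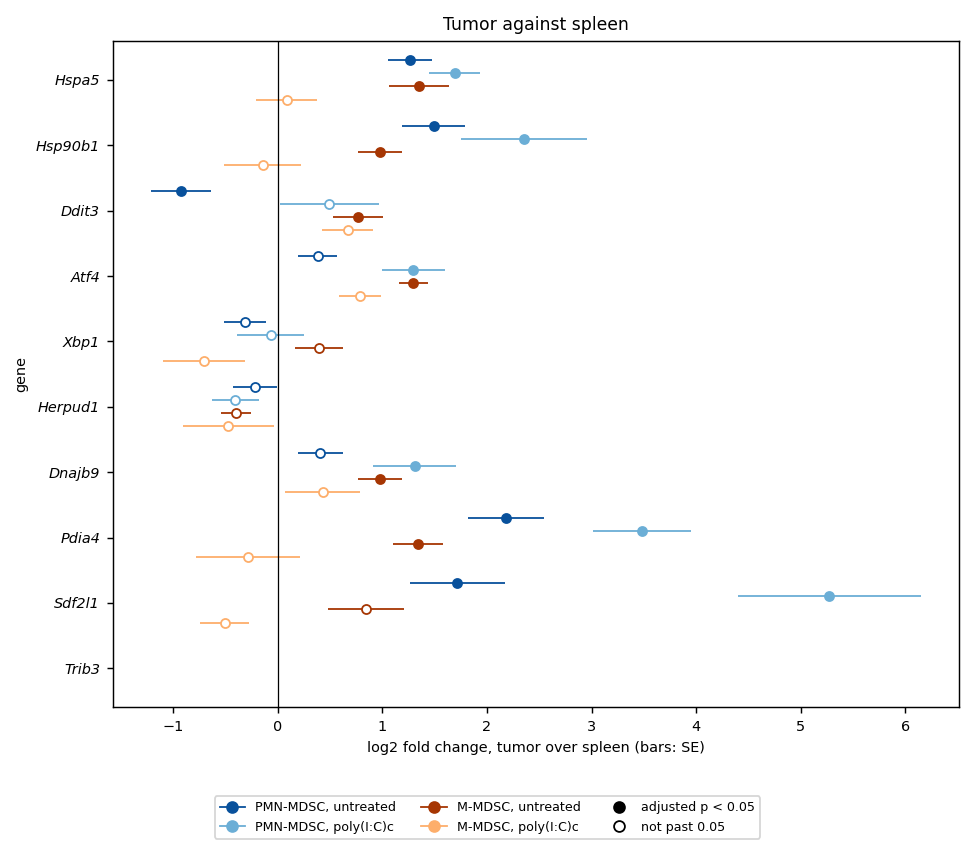
Log2 fold change, tumor over spleen, with SE for each UPR gene in 4 settings (untreated and poly(I:C)c-treated PMN-MDSC and M-MDSC), filled where the adjusted p was below 0.05. Pdia4, Hsp90b1 and Hspa5 lie right of 0 with filled points in 3 settings, and in treated M-MDSC no point is filled. Trib3 had too few counts for a test.

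For Hspa5 the 4 untreated spleen PMN-MDSC libraries held 392, 517, 351 and 404 CPM and the 4 from tumor 1078, 1006, 709 and 740.0. The groups did not overlap, and the log2 fold change was 1.26 ± 0.21 (SE, adjusted p = 0.00054). In M-MDSC the values were 459, 539.6, 224 and 230.5 CPM in spleen and 1139, 1039, 673 and 841 in tumor, again without overlap, with 1.35 ± 0.29 (SE, adjusted p = 0.00477). Hsp90b1 had 605, 261, 354 and 294 CPM in spleen PMN-MDSC and 1182, 1049, 725 and 869 in tumor, and the difference was 1.49 ± 0.30 (SE, adjusted p = 0.00172). Its spleen M-MDSC libraries held 756, 731, 515 and 477 CPM and those from tumor 1372, 1147, 842 and 1525, with a log2 fold change of 0.98 (adjusted p = 0.00433). All tumor libraries of each cell type were above all its spleen libraries for both chaperones. Groups free of overlap were common here, at 55.1% of all genes tested in PMN-MDSC (5 of 9 members) and 31.4% in M-MDSC (7 of 9).

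Pdia4 showed the largest fold of the tested members in untreated PMN-MDSC. Its libraries held 107, 61.9, 39.1 and 35.3 CPM in spleen and 353, 222, 210.0 and 213 in tumor, a log2 fold change of 2.18 ± 0.37 (SE, adjusted p = 0.000551). In M-MDSC it went from 133, 142, 103 and 73.4 CPM in spleen to 358, 285, 183 and 319 in tumor, with 1.34 (adjusted p = 0.0014). Again neither cell type had overlapping groups. Sdf2l1 followed in PMN-MDSC, with 18.8, 13, 5.24 and 4.98 CPM in spleen, 42.8, 39.2, 18.8 and 25 in tumor and a log2 fold change of 1.72 (adjusted p = 0.00787), where the highest spleen and the lowest tumor library nearly met. In M-MDSC Sdf2l1 overlapped, with 11.9 to 36.2 CPM in spleen and 27 to 65.7 in tumor, and 0.84 (adjusted p = 0.112). Dnajb9 was called in M-MDSC, at 12.8 to 17.9 CPM in spleen and 22.4 to 37.3 in tumor (0.98 (adjusted p = 0.00438)), and had 0.41 (adjusted p = 0.124) in PMN-MDSC. Herpud1 and Xbp1 passed the test in neither cell type, with log2 fold changes of -0.22 and -0.40 for Herpud1 and -0.31 and 0.39 for Xbp1.

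Among the ATF4 and CHOP arm, Ddit3 held 59.7, 115, 52.8 and 78.2 CPM in untreated spleen PMN-MDSC and 21.1, 35.3, 35.6 and 49.9 in tumor PMN-MDSC, a log2 fold change of -0.92 ± 0.29 (SE, adjusted p = 0.0176). In M-MDSC the levels were lower, 8.74, 7.08, 6.09 and 9.41 CPM in spleen and 13.1, 12.5, 14.5 and 14.1 in tumor, and the log2 fold change was 0.77 ± 0.24 (SE, adjusted p = 0.0307). Both pairs of groups were free of overlap, and the call was lost without tumor library 1 or 2 in PMN-MDSC. In M-MDSC it held in 2 of 8 fits (without tumor library 2 or 4), and without spleen library 4 or tumor library 3 the gene averaged under 25 counts and was not tested. Atf4 in M-MDSC went from 82.2, 76.3, 76.8 and 70.2 CPM in spleen to 194, 152, 183 and 225 in tumor, with 1.30 ± 0.14 (SE, adjusted p = 3.43e-05), the smallest adjusted p of a member in this cell type. In PMN-MDSC Atf4 had 139, 186, 134 and 136 and 153, 132, 187 and 217 CPM, which overlapped, with 0.38 (adjusted p = 0.0984).

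Markers of other cell types differed in the same comparison. The 11 macrophage and dendritic cell markers (9 of 11 with counts in every library of each untreated MDSC group) summed to 1489 to 5108 CPM in spleen and 15270 to 19160 in tumor PMN-MDSC, and to 2406 to 4090 and 7098 to 12620 in M-MDSC. Siglech was at 0 in spleen PMN-MDSC and in tumor M-MDSC, and Xcr1 in spleen M-MDSC. The 12 pancreatic acinar markers, from a cell type with an abundant ER, summed to 1.613 to 7.916 CPM (1 gene with counts in every library, with Cela2a, Cela3b, Pnlip and Amy2a5 among those at 0) in spleen and 26.4 to 240.1 (10 of 12) in tumor PMN-MDSC. In M-MDSC they summed to 0.1881 to 1.354 CPM in spleen (1 of 12 with counts in every library, and 10 of 12 at 0) and 5.932 to 28.14 in tumor (2 of 12, Rbpjl at 0). The 9 epithelial markers summed to 20.97 to 50.37 CPM in spleen PMN-MDSC (3 of 9 with counts in every library, and Krt8, Krt19, Cldn4 and Cldn7 at 0) and 132.6 to 801.7 in tumor PMN-MDSC (5 of 9, and Cldn4 and Cldn7 at 0). In M-MDSC the epithelial markers summed to 5.684 to 12.18 CPM in spleen (3 of 9, Cldn4 and Cldn7 at 0) and 105.1 to 350 in tumor (5 of 9, Cldn7 at 0), and the neutrophil markers to 2698 to 6266 (10 of 10) and 235.1 to 671.1 (7 of 10). In all, the summed levels of 9 of 12 marker lists did not overlap between tumor and spleen in PMN-MDSC, where fibroblast and monocyte markers were also higher and T and NK cell, granulocyte and monocyte progenitor and erythroid markers lower in tumor. In M-MDSC 7 of 12 did not, with B cell and plasma cell, proliferation and erythroid markers also lower in tumor. The part of these cells in the higher chaperone levels was not tested.

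In treated mice members were called between tumor and spleen in PMN-MDSC and not in M-MDSC, and whether the cell types differed was not tested. In PMN-MDSC 5 of the 8 members that averaged at least 25 counts in both groups were called higher in tumor and 0 lower, where 28.2% of 8031 genes were called higher and 25.4% lower, or 14.3% and 32.5% of the 5926 genes that averaged at least 25 counts in both. Hspa5 held 252, 356 and 236 CPM in the 3 spleen and 845, 834, 716 and 926 in the 4 tumor libraries (1.69 (adjusted p = 0.000684)). Pdia4 held 21, 19.7 and 12.7 and 276, 216, 135 and 89.4 CPM (3.48 (adjusted p = 0.000529)). Every treated tumor library was above every treated spleen library for both, where 57.3% of all genes tested did not overlap. Hsp90b1 had 309.7, 88.7 and 57.4 CPM in spleen and 874, 856, 664 and 485 in tumor, with 2.35 (adjusted p = 0.0108), and Atf4 116, 124 and 120.0 and 180.0, 188, 314 and 410.0 CPM, with 1.30 (adjusted p = 0.00697). Without 1 library in turn the Hsp90b1 value ran from 1.92 to 3.45, and its call was kept in all 7 fits. Dnajb9 was called as well, at 20.8 to 28.6 against 32.4 to 100.2 CPM (1.31 (adjusted p = 0.0218)), a call lost without spleen library 2 or 3. Sdf2l1 passed the minimum of 25 counts on average only through the tumor libraries, so its call was not independent of that filter. It held 135, 102, 24 and 30 counts in the tumor libraries and 0, 0 and 3 in the spleen libraries. Pooled, these were 291 and 3 counts, a ratio of 40.9, which is given as a description. The 10 neutrophil markers summed to 53420 to 80550 CPM in these spleen and 3930 to 14740 in these tumor libraries (10 of 10 with counts in every library of both), and the 11 macrophage and dendritic cell markers to 160.1 to 335.1 (8 of 11, with Flt3, Xcr1 and Siglech at 0) and 8731 to 19880 (8 of 11, with Siglech at 0). Acinar markers summed to 0.5955 to 1.75 CPM in spleen (0 of 12 with counts in every library, with Cela2a, Cela3b and Pnlip among 9 at 0) and 22.5 to 58.15 in tumor (8 of 12), epithelial markers to 5.592 to 14.89 (1 of 9, with Krt19, Epcam, Cldn4 and Cldn7 at 0) and 82.58 to 180.7 (6 of 9, with Cldn4 and Cldn7 at 0), endothelial markers to 15.25 to 24.42 (1 of 6) and 78.18 to 134.2 (4 of 6, with Tie1 at 0 in both), and B cell and plasma cell markers to 140 to 232.3 (9 of 13) and 44.96 to 123.7 (6 of 13). These 6 of 12 lists did not overlap, and their part in the differences was not tested.

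In treated M-MDSC 0 of 9 members were called in either direction, where 5.11% of 9026 genes were called higher in tumor and 0.764% lower, and 2 members (Atf4 and Ddit3) had an unadjusted p below 0.05, beside 23.3% of all genes. Atf4 held 85.1, 103, 96.4 and 102 CPM in spleen and 192, 119.9 and 189 in tumor (0.79 (adjusted p = 0.059)), and Ddit3 13.1, 21.9, 24.3 and 17.6 and 25, 32.8 and 33.7 CPM (0.67 (adjusted p = 0.153)). Neither overlapped between the compartments, where 21.8% of all genes tested did not. Hspa5 had 690.3 to 1305 CPM in treated spleen and 863 to 1251 in treated tumor M-MDSC, and its log2 fold change was 0.08 ± 0.29 (SE). DESeq2, edgeR without the filter on low counts and 1 fit over all groups each called 1 member here. Of 9026 genes DESeq2 called 812 higher and 320 lower, and the fit over all groups 934 and 422. No such share was computed without the filter. Without spleen library 4, 0 were called, and the signs of Hsp90b1 and Pdia4 turned to 0.28 and 0.44. In these libraries B cell and plasma cell markers summed to 205.5 to 18750 CPM in spleen (10 of 13 with counts in every library) and 69.83 to 137.4 in tumor (5 of 13, with Mzb1 and Tnfrsf17 among those at 0), and macrophage and dendritic cell markers to 605.5 to 971.8 (10 of 11, Xcr1 at 0) and 6056 to 29280 (8 of 11, Siglech at 0). Epithelial markers summed to 2.936 to 16.12 CPM in spleen (3 of 9, Cldn4 and Cldn7 at 0) and 70.85 to 99.61 in tumor (5 of 9, with Epcam also at 0), acinar markers to 0.304 to 2.936 (0 of 12, and 10 of 12 at 0) and 6.75 to 24.53 (5 of 12), and fibroblast markers to 1.068 to 11.62 (1 of 8, Lum at 0) and 14.62 to 78.68 (6 of 8). Erythroid markers summed to 0.6079 to 3.027 CPM in spleen (0 of 7 with counts in every library) and had 0 counts in tumor. These 6 of 12 lists did not overlap, and their part in the levels was not tested.

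The second comparison asked how the UPR genes differed after poly(I:C)c. In spleen M-MDSC, Hspa5 rose 2.6-fold, Ddit3 2.38-fold and Sdf2l1 2.32-fold, and the log2 fold changes of all 9 members tested were positive, with a median of 0.97 beside -0.01 over all genes. Without library 4, which carried the plasma cell markers, Xbp1 and Herpud1 were at -0.03 and -0.02 and the median was 0.55. In tumor MDSC the only member called was Ddit3, which rose 3.21-fold in PMN-MDSC and 2.24-fold in M-MDSC. In spleen PMN-MDSC the only member called was Pdia4, which fell to 0.292 of its untreated level. The comparisons of treated with untreated libraries share the libraries used for tumor against spleen above.

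**Figure D3:**
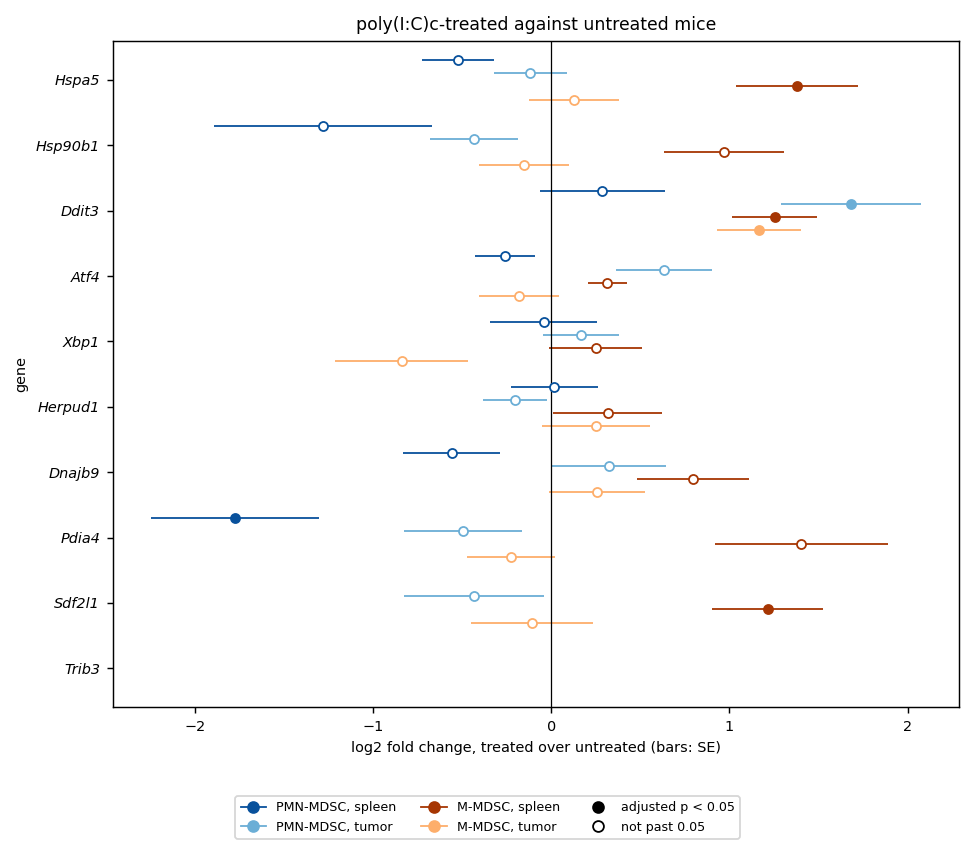
Log2 fold change, poly(I:C)c-treated over untreated, with SE for each UPR gene in PMN-MDSC and M-MDSC of spleen and tumor, filled where the adjusted p was below 0.05. Spleen M-MDSC lie right of 0 for all 9 members tested with all libraries entered (without library 4, Xbp1 and Herpud1 are at -0.03 and -0.02), and Ddit3 is filled in 3 of the 4 settings. Sdf2l1 in spleen PMN-MDSC and Trib3 in all settings had too few counts for a test.

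In spleen M-MDSC 3 of 9 members were called higher and 0 lower after treatment, where 10.7% of 8827 genes were called higher and 8.96% lower. Hspa5 held 459, 539.6, 224 and 230.5 CPM in untreated and 728, 1101, 690.3 and 1305 in treated libraries, a log2 fold change of 1.38 ± 0.34 (SE, adjusted p = 0.0206). Sdf2l1 went from 29.7, 36.2, 19 and 11.9 to 50.4, 63.8, 44.7 and 64.5 CPM, with 1.22 ± 0.31 (SE, adjusted p = 0.0242). Ddit3 went from 8.74, 7.08, 6.09 and 9.41 to 13.1, 21.9, 24.3 and 17.6 CPM, with 1.25 ± 0.24 (SE, adjusted p = 0.00567). Each of these 3 had all treated above all untreated libraries. Hsp90b1 held 867, 798, 1088 and 2128 CPM after treatment, Pdia4 154, 216, 179.6 and 643 and Atf4 85.1, 103, 96.4 and 102. These groups were also free of overlap with the untreated ones, but their adjusted p were 0.0723, 0.0776 and 0.0718 at log2 fold changes of 0.97, 1.40 and 0.31. In all, 6 of 9 members did not overlap, where 25.1% of all genes tested did not. Herpud1, Xbp1 and Dnajb9 overlapped, with log2 fold changes of 0.32, 0.25 and 0.80. The calls were not stable to leaving out single libraries for Hspa5 (lost without treated library 2 or untreated library 3 or 4) and Sdf2l1 (treated 2 or untreated 3), with 1 to 4 members called, while Ddit3 kept its call in all 8 such fits. DESeq2 called 6.

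Library 4 of treated spleen M-MDSC carried the plasma cell markers described above (Ighm at 11550 CPM, Jchain, which joins immunoglobulin chains, at 709 and Mzb1 at 153, against 354, 38.9 and 4.56 in library 3). All 13 markers of the list were detected in it, 10 of the 13 had counts in every library of both groups, and none was at 0 throughout either group. Relative to the mean of the other 3 treated libraries, it held 3.5 times as much Pdia4, 2.32 times Hsp90b1, 2.06 times Herpud1, 1.97 times Dnajb9, 1.83 times Xbp1 and 1.55 times Hspa5, but 1.22 times Sdf2l1, 1.08 times Atf4 and 0.891 times Ddit3. Trib3 was at the counting floor, at 1.12 CPM against 0 to 1.07. Pdia4, Hsp90b1, Herpud1, Dnajb9, Xbp1 and Hspa5 were each above the highest of the other 3 libraries there, whereas Sdf2l1 was level with it and Atf4 and Ddit3 were below it.

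**Figure D4:**
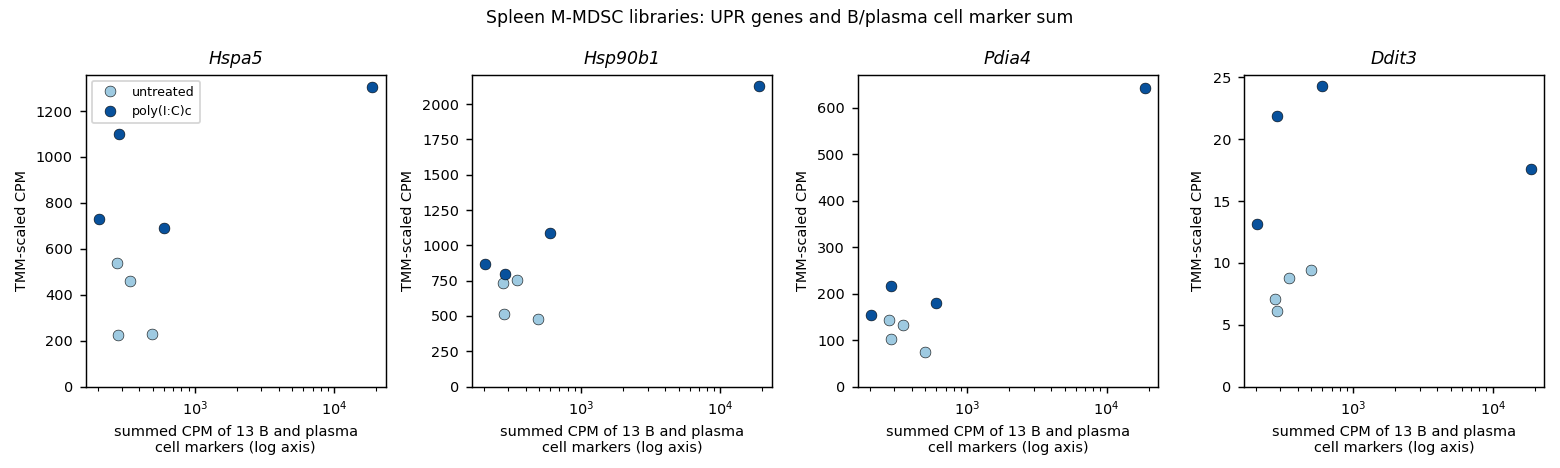
TMM-scaled CPM of Hspa5, Hsp90b1, Pdia4 and Ddit3 against the summed CPM of 13 B cell and plasma cell markers (log axis) in 4 untreated and 4 poly(I:C)c-treated spleen M-MDSC libraries (points). Library 4 of the treated group lies far right at 18750 CPM and is the highest library for Hspa5, Hsp90b1 and Pdia4 but not for Ddit3.

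Without that library the same 3 members were called: Hspa5 at 1.20 (adjusted p = 0.0378), Ddit3 at 1.30 (adjusted p = 0.00718) and Sdf2l1 at 1.16 (adjusted p = 0.0415). Pdia4 went from 1.40 to 0.69 (adjusted p = 0.0594) and Hsp90b1 from 0.97 to 0.55 (adjusted p = 0.072). Xbp1 and Herpud1 turned sign, to -0.03 and -0.02. The members' median was then 0.55, beside -0.01 over all genes. Macrophage and dendritic cell markers summed to 2406 to 4090 CPM in untreated and 605.5 to 971.8 in treated libraries (9 and 10 of 11 with counts in every library, Xcr1 at 0 in both), 6 endothelial markers to 30.29 to 40.95 and 113.2 to 277.6 (2 and 4 of 6, Egfl7 at 0 in untreated). Erythroid markers summed to 23.99 to 47.79 and 0.6079 to 3.027 CPM (3 and 0 of 7). These 3 of 12 lists did not overlap, and their part in the treated against untreated differences was not tested.

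In spleen PMN-MDSC 1 of 8 members was called lower and 0 higher, where 5.52% of 7261 genes were called lower and 6.1% higher, and 2 members had an unadjusted p below 0.05, beside 27.4% of all genes. Pdia4 held 107, 61.9, 39.1 and 35.3 CPM in untreated and 21, 19.7 and 12.7 in treated libraries, with -1.78 ± 0.47 (SE, adjusted p = 0.0442). It and Atf4, with -0.26 (adjusted p = 0.361), were the 2 of 8 members whose groups did not overlap, where 24.9% of all genes tested did not. The call was lost in 6 of the 7 fits that left out 1 library, and held without untreated library 3. Hspa5 had 252, 356 and 236 CPM in treated libraries (-0.53 (adjusted p = 0.133)) and Hsp90b1 309.7, 88.7 and 57.4 (-1.28 (adjusted p = 0.219)), and both overlapped with the untreated range. Sdf2l1 averaged under 25 counts and was not tested. It held 65, 18, 13 and 13 counts in the untreated and 0, 0 and 3 in the treated libraries. Pooled, these were 109 and 3 counts, that is 11 and 0.626 CPM, an untreated to treated ratio of 17.5. Untreated library 1 held 65 of the 109 counts, and without it, a choice made after seeing the data, the ratio was 10.8. Pooling leaves out the variation between libraries, so both ratios are given as a description. Among these libraries the neutrophil markers summed to 21350 to 42190 CPM before and 53420 to 80550 after treatment (10 of 10 in every library), and the macrophage and dendritic cell markers to 1489 to 5108 and 160.1 to 335.1 (9 and 8 of 11 with counts in every library, with Siglech at 0 in both). Epithelial markers went from 20.97 to 50.37 to 5.592 to 14.89 CPM (3 and 1 of 9), endothelial markers from 32.96 to 84.54 to 15.25 to 24.42 (3 and 1 of 6, Tie1 at 0 after treatment) and erythroid markers from 70.98 to 190.4 to 0.5084 to 9.623 (5 and 0 of 7, with Hba-a1 and Car1 among those at 0 after treatment). These 5 of 12 lists did not overlap, and their part in the Pdia4 and Sdf2l1 levels was not tested.

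In tumor PMN-MDSC 1 of 9 members was called higher, where 2.29% of 8308 genes were called higher and 1.07% lower. Ddit3 held 21.1, 35.3, 35.6 and 49.9 CPM in untreated and 62.2, 62.1, 171 and 174 in treated libraries, with 1.68 ± 0.39 (SE, adjusted p = 0.0449). It was the 1 of 9 members whose groups did not overlap, where 12.1% of all genes tested did not. Treated libraries 1 and 2 were close to each other, as were 3 and 4. Libraries 3 and 4 were also the highest of the group for Atf4 (180.0, 188, 314 and 410.0 CPM in libraries 1 to 4), Dnajb9 (32.4, 37.5, 62.9 and 100.2 CPM) and, by CPM, Trib3 (20, 11, 18 and 44 counts, or 4.98, 3.52, 8.27 and 21.5 CPM). They were the lowest for Pdia4 (276, 216, 135 and 89.4 CPM), Hsp90b1 (874, 856, 664 and 485 CPM), Sdf2l1 (33.6, 32.7, 11 and 14.7 CPM) and Herpud1 (74.4, 76.5, 54.7 and 66.9 CPM). Hspa5 (845, 834, 716 and 926 CPM) was instead highest in library 4 and lowest in library 3, and Xbp1 (259.6, 235, 406 and 396 CPM) was higher in libraries 3 and 4. Such a split was not particular to this group, as untreated libraries 1 and 2 held more Hspa5 than 3 and 4 in several groups. Their CPM in this order were 1078, 1006, 709 and 740.0 in tumor PMN-MDSC and 459, 539.6, 224 and 230.5 in spleen M-MDSC. They were 1139, 1039, 673 and 841 in tumor M-MDSC and 1457, 1129, 719 and 754 in bulk tumor. Untreated spleen PMN-MDSC (392, 517, 351 and 404) had no such split. The cause of the split was not tested. Summed neutrophil markers in treated tumor PMN-MDSC libraries 1 to 4 were 3930, 8655, 6619 and 14740 CPM, and macrophage and dendritic cell markers 17930, 19880, 13530 and 8731 CPM. Between untreated and treated libraries only the B cell and plasma cell markers, 1 of 12 lists, did not overlap, at 186.1 to 327.4 and 44.96 to 123.7 CPM (5 and 6 of 13, with Tnfrsf17 at 0 in both). The part of these cells in the levels was not tested. Atf4 had a log2 fold change of 0.63 (adjusted p = 0.246), and Ddit3 lost its call in 6 of 8 fits that left out 1 library, keeping it without treated library 1 or 2.

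In tumor M-MDSC 1 of 9 members was called higher, where 1.82% of 8360 genes were called higher and 1.06% lower. Ddit3 held 13.1, 12.5, 14.5 and 14.1 CPM in untreated and 25, 32.8 and 33.7 in treated libraries, without overlap, with 1.17 ± 0.23 (SE, adjusted p = 0.0348), and kept its call in 1 of 7 fits without 1 library (treated library 1). In this comparison 19.4% of all genes tested did not overlap. The summed levels of 5 of 12 marker lists did not overlap between the same groups. The 8 monocyte markers summed to 3922 to 4311 CPM in untreated and 2501 to 3420 in treated libraries (8 of 8 with counts in every library of both), 6 endothelial markers to 30.83 to 77.77 and 94.11 to 209.9 (2 and 4 of 6, none at 0), 9 epithelial markers to 105.1 to 350 and 70.85 to 99.61 (5 of 9 in both, with Cldn7 at 0 in both and Epcam and Cldn4 at 0 in treated) and 8 proliferation markers to 142.8 to 390.8 and 434 to 728.9 (5 and 8 of 8). The 13 B cell and plasma cell markers summed to 172.1 to 248 and 69.83 to 137.4 CPM (5 of 13 in both, with Mzb1 and Tnfrsf17 at 0 in both and Cd79a among those at 0 in treated). Their part in the Ddit3 level was not tested. Hspa5 held 926, 863 and 1251 CPM and Hsp90b1 971, 1231 and 1109 in treated libraries, overlapping with the untreated ones, with log2 fold changes of 0.13 and -0.15. Xbp1 held 445, 451, 273 and 235 CPM in untreated and 320.4, 125 and 149 in treated libraries, which overlapped, with -0.84 (adjusted p = 0.262). The difference between tumor and spleen in the treatment effect was called for 0 of 9 members in either cell type, where 3.17% and 0.336% of 8047 genes were called with a larger and a smaller value in tumor in PMN-MDSC and 0.229% and 0.561% of 8730 in M-MDSC. At an unadjusted p below 0.05 there were 4 members in PMN-MDSC and 5 in M-MDSC, beside 16.5% and 14.2% of all genes. DESeq2 called 1 in PMN-MDSC, where 396 of 8047 genes were called higher and 105 lower. It called 0 in M-MDSC, where 108 of 8730 genes were higher and 199 lower. Without the filter on low counts edgeR called 3 and 5 members, and the share over all genes was not computed for that fit. In M-MDSC the 9 differences were all negative, with -1.60 (adjusted p = 0.217) for Pdia4 and -1.22 (adjusted p = 0.214) for Hspa5. Without spleen library 4, which carried the plasma cell markers, Pdia4 was at -0.89 and Hspa5 at -1.05, and Herpud1 turned to 0.30. In PMN-MDSC the value with the smallest adjusted p was 3.54 (adjusted p = 0.0925) for Sdf2l1, which rests on the 3 counts in treated spleen.

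The third comparison was between the cell types. In untreated spleen Ddit3 was 8.2-fold higher in PMN-MDSC than in M-MDSC, Dnajb9 2.17-fold and Atf4 1.69-fold, whereas Hsp90b1, Pdia4 and Sdf2l1 were lower in PMN-MDSC, at 0.544, 0.48 and 0.394 of the M-MDSC level. Of 9 members 3 were called higher and 3 lower, where 30.9% and 33.4% of 8579 genes were. Ddit3 held 59.7, 115, 52.8 and 78.2 CPM in PMN-MDSC against 8.74, 7.08, 6.09 and 9.41 in M-MDSC, with 3.04 ± 0.25 (SE, adjusted p = 9.56e-06). Atf4 held 134 to 186 CPM against 70.2 to 82.2, with 0.75 ± 0.12 (SE, adjusted p = 0.000478), and Dnajb9 27.1 to 51 against 12.8 to 17.9, with 1.12 ± 0.23 (SE, adjusted p = 0.00212). These 3 did not overlap between the cell types, where 58.1% of all genes tested did not, and kept their calls in all 8 fits without 1 library. Hsp90b1 (-0.88 (adjusted p = 0.0285)), Pdia4 (-1.06 (adjusted p = 0.0283)) and Sdf2l1 (-1.34 (adjusted p = 0.0339)) overlapped, and each lost its call in 5 of 8 such fits, namely without M-MDSC library 1 or 2 or PMN-MDSC library 2, 3 or 4. Xbp1 and Herpud1 had log2 fold changes of 0.35 and 0.29 and did not pass. Besides the neutrophil, monocyte and progenitor markers, acinar, epithelial and erythroid markers differed without overlap (6 of 12 lists), at 1.613 to 7.916, 20.97 to 50.37 and 70.98 to 190.4 CPM in PMN-MDSC against 0.1881 to 1.354, 5.684 to 12.18 and 23.99 to 47.79 in M-MDSC. Their part was not tested.

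In untreated tumor Ddit3 was the 1 member of 9 called, and was higher in PMN-MDSC, where 7.25% of 7623 genes were called higher and 5.73% lower. It held 21.1, 35.3, 35.6 and 49.9 CPM against 13.1, 12.5, 14.5 and 14.1 in M-MDSC, with 1.42 ± 0.27 (SE, adjusted p = 0.00397), and kept its call in all 8 fits. Herpud1 did not overlap either, as 19.9% of all genes tested, at 69.1 to 93.7 against 48.7 to 60.6 CPM, with 0.53 (adjusted p = 0.0545). Hspa5, Hsp90b1 and Pdia4 overlapped between the cell types in tumor, with log2 fold changes of -0.03 ± 0.20, -0.32 ± 0.21 and -0.16 ± 0.23 (SE). Neutrophil, monocyte, macrophage and dendritic cell, and endothelial markers (4 of 12 lists) did not overlap here, the last at 83.16 to 97.7 and 30.83 to 77.77 CPM (4 and 2 of 6 with counts in every library), and their part was not tested.

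Bulk tumor, which holds tumor cells and stroma (9 epithelial markers summed to 4581 to 6486 CPM, against 105.1 to 350 in tumor M-MDSC), was set against the untreated tumor MDSC. Hsp90b1 and Pdia4 were higher in bulk tumor than in either cell type, and Atf4, Xbp1 and Sdf2l1 were lower than in either. Of the 9 members that averaged at least 25 counts in both groups, 2 were called higher and 5 lower against tumor PMN-MDSC, where 36.1% and 33.3% of 11138 genes were, or 25% and 44.2% of the 7260 that met the same condition. Against tumor M-MDSC 3 of the 9 were called higher and 3 lower, where 38.2% and 31% of 11022 genes were, or 23.6% and 43% of 7020. Hsp90b1 held 2913, 2364, 1739.9 and 1527 CPM in bulk tumor, above every MDSC library of untreated tumors, with 0.95 ± 0.24 (SE, adjusted p = 0.00439) against PMN-MDSC and 0.71 ± 0.25 (SE, adjusted p = 0.0245) against M-MDSC. The latter call was lost without M-MDSC library 2 or 3 (adjusted p up to 0.076). Pdia4 held 733, 603, 472 and 365 CPM, also above all of them (66.1% and 64.6% of all genes tested did not overlap), with 0.91 and 0.83. Hspa5, by contrast, overlapped at 1457, 1129, 719 and 754 CPM, with -0.01 ± 0.25 (SE) and 0.03 ± 0.27 (SE). Summed levels of 8 and 7 of the 12 marker lists did not overlap with PMN-MDSC and M-MDSC, and their part was not tested.

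Sdf2l1 held 9.39, 5.62, 6.48 and 6.26 CPM in bulk tumor, below every tumor MDSC library, with -2.36 ± 0.30 (SE, adjusted p = 2.73e-05) against PMN-MDSC and -2.70 ± 0.32 (SE, adjusted p = 1.75e-05) against M-MDSC. Xbp1 held 126, 126, 145 and 133 CPM, with -1.30 (adjusted p = 1.99e-05) and -1.52 (adjusted p = 0.000144), and Atf4 138, 101, 84.2 and 75.8 CPM, with -0.99 (adjusted p = 0.00132) and -1.01 (adjusted p = 0.000759). Xbp1 was below all untreated tumor MDSC libraries, and Atf4 was below all M-MDSC but overlapped with PMN-MDSC. Ddit3 held 27.7, 32.7, 17.2 and 20.3 CPM and lay between the cell types, lower than PMN-MDSC (-0.76 (adjusted p = 0.0248)) and higher than M-MDSC (0.72 (adjusted p = 0.0248)). The former call was lost without PMN-MDSC library 2 or 4 or bulk library 3 or 4, and the latter without M-MDSC library 1 or 2 or bulk library 2. Herpud1 held 85.1, 68.7, 43.4 and 48 CPM and Dnajb9 76.8, 63.6, 36.3 and 32.7, and of these only Herpud1 against PMN-MDSC passed (-0.54 (adjusted p = 0.0454)), a call kept in 3 of 8 fits without 1 library (PMN-MDSC library 3 or 4 or bulk library 1). Trib3 had 63, 19, 64 and 140 counts in bulk tumor, or 8.1, 4.85, 6.58 and 14.1 CPM, against 4, 4, 1 and 4 in tumor PMN-MDSC and 4, 1, 0 and 0 in tumor M-MDSC. It passed the minimum of 25 counts only through bulk tumor, so its fitted values of 2.19 and 3.53 are given as a description.

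Set side by side, the members differed in their patterns over the 9 groups.

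**Figure D5:**
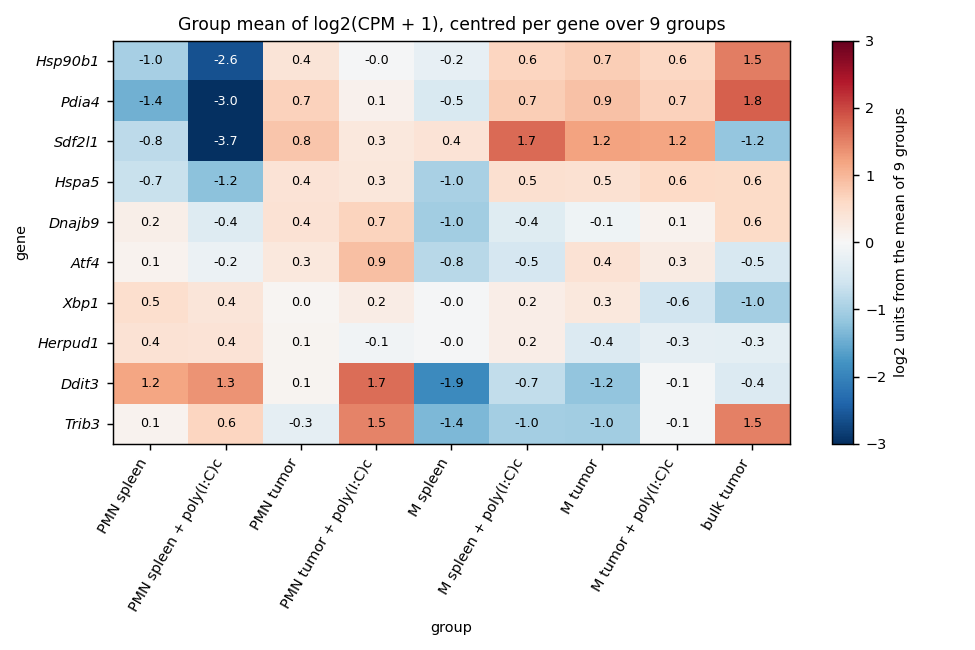
Group means of log2(CPM + 1) of each UPR gene (rows), centred on the gene's mean over 9 groups (columns); red is above and blue below that mean. Hsp90b1, Pdia4 and Sdf2l1 are lowest in treated spleen PMN-MDSC (-2.61, -3.04 and -3.68), and Ddit3 is lowest in untreated spleen M-MDSC (-1.91).

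Likeness was taken as the root mean square difference of group mean log2 CPM, centred over the 9 groups, so that smaller is more alike. The most alike pair was Hsp90b1 and Pdia4 at 0.267, followed by Xbp1 and Herpud1 at 0.377 and Atf4 and Dnajb9 at 0.426. Ddit3 and Sdf2l1 were farthest apart at 2.37. Of 9790 genes, those closest to Hspa5 were Pla2g4a (0.203), a cytosolic phospholipase A2, Creld2 (0.266), an ER stress-inducible disulfide isomerase family member, Rrbp1 (0.306), the ribosome-binding protein of the rough ER, Arf4 (0.309), a small GTPase of the Golgi, and Spcs2 (0.311), a signal peptidase subunit. The other members were farther from Hspa5, ranking from 962 (Dnajb9) and 1718 (Hsp90b1) to 7750 (Ddit3) of the 9790 genes. The genes closest to Trib3 were Ccnyl1 (0.477), Fmnl2 (0.493), Hist1h2bc (0.498), Lrif1 (0.499) and Malat1 (0.559), from a pattern that rests on few counts.

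The remaining genes of the pathway were read from lists, counting the genes that averaged at least 25 counts in each group compared, a condition added after seeing the data, beside the shares of all genes that met it. Of the other ER chaperones and folding enzymes, 13 of 14 were called higher in tumor than in spleen in untreated PMN-MDSC, 8 of 10 in treated PMN-MDSC and 8 of 15 in untreated M-MDSC, with 0 lower in each and 0 of 16 called in treated M-MDSC. Over all genes 27%, 14.3%, 15.8% and 3.63% were called higher in these comparisons. P4hb, a disulfide isomerase, had 1.69 ± 0.20 (SE, adjusted p = 7.32e-05) in untreated PMN-MDSC and 0.85 ± 0.16 (SE, adjusted p = 0.00179) in untreated M-MDSC. Pdia6, another one, and the lectin chaperone Calr had 2.73 (adjusted p = 0.000602) and 2.20 (adjusted p = 0.000973) in treated PMN-MDSC. After treatment 7 of 15 were called higher in spleen M-MDSC, for example Pdia3 at 0.81 ± 0.13 (SE, adjusted p = 0.00264) and Fkbp2 at 1.06 ± 0.21 (SE, adjusted p = 0.00721), and 8 of 15 without library 4, an alternative chosen after seeing the data, where 10.1% of all genes were called higher with and 11.2% without it. After treatment 0 of 10 were called in spleen PMN-MDSC, 0 of 15 in tumor PMN-MDSC and 0 of 16 in tumor M-MDSC. Of all genes only 6.61%, 2.07% and 1.53% were called higher there and 2.32%, 0.931% and 1.05% lower. Translocation and signal peptide processing genes were called higher in tumor in 7 of 15 in untreated PMN-MDSC, with 1 lower, in 6 of 13 in treated PMN-MDSC, with 1 lower, and in 2 of 18 in untreated M-MDSC, with 1 lower, beside the same shares of all genes. Of the ER-associated degradation genes 2 of 14 were higher in tumor in untreated PMN-MDSC, with 2 lower, and 2 of 14 in untreated M-MDSC, with 1 lower, where 27% and 15.8% of all genes were higher and 28.9% and 10.5% lower. After treatment 3 of 14 of them and 4 of 18 translocation genes were called higher in spleen M-MDSC, with 0 lower, and 5 of 14 and 4 of 18 without library 4. Vcp, the segregase of the degradation pathway, had 0.75 (adjusted p = 0.00498) and Spcs2 0.83 (adjusted p = 0.00875).

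Of the other ATF4 and CHOP targets, 7 of 10 were called higher in tumor and 2 lower in untreated PMN-MDSC, 2 of 9 higher and 1 lower in treated PMN-MDSC, 9 of 12 higher and 0 lower in untreated M-MDSC, and 5 of 12 higher and 0 lower in treated M-MDSC, where 27%, 14.3%, 15.8% and 3.63% of all genes were higher. Atf3, a stress-induced transcription factor, and Ppp1r15a, the eIF2alpha phosphatase subunit GADD34, had the smallest adjusted p in untreated mice, with log2 fold changes of 3.48 (adjusted p = 3.62e-06) and 3.51 (adjusted p = 3.62e-06) in untreated PMN-MDSC and 4.60 (adjusted p = 4.14e-07) and 4.73 (adjusted p = 1.85e-08) in untreated M-MDSC. After treatment 6 of 12 were called higher and 1 lower in spleen M-MDSC (10.1% and 8.12% of all genes), including Slc3a2, an amino acid transporter subunit, at 1.07 (adjusted p = 0.00922). In spleen PMN-MDSC 2 of 8 were called higher and 1 lower (6.61% and 2.32% of all genes), the latter being Ppp1r15a at -1.74 (adjusted p = 0.00398). Atf3 had 180, 75, 70 and 118 counts in untreated and 3, 18 and 9 in treated spleen PMN-MDSC, and passed the minimum only through the former, so its values are given as a description. Both tumor groups had 0 of 12 called after treatment. Between the cell types in untreated spleen, 5 of 10 were higher and 2 lower in PMN-MDSC, with Sesn2 at 2.79 (adjusted p = 9.56e-06) and the cystine transporter Slc7a11 at 3.70 (adjusted p = 5.1e-05), while 9 of 14 other ER chaperones were lower and 1 higher, where 31.9% of all genes were higher and 28.7% lower.

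Of the sensors and eIF2alpha kinases, 1 of 6 was called higher and 1 lower after treatment in spleen PMN-MDSC, and of 7, 1 higher and 0 lower in tumor PMN-MDSC, 1 higher and 2 lower in spleen M-MDSC, and 0 higher and 1 lower in tumor M-MDSC. Over all genes the shares called higher and lower were 6.61% and 2.32%, 2.07% and 0.931%, 10.1% and 8.12%, and 1.53% and 1.05%. Eif2ak2, the interferon-induced PKR, rose with treatment in spleen PMN-MDSC (1.86 ± 0.23 (SE, adjusted p = 0.00327)), tumor PMN-MDSC (1.05 ± 0.19 (SE, adjusted p = 0.0137)) and spleen M-MDSC (0.84 ± 0.12 (SE, adjusted p = 0.00118)), and had 0.42 ± 0.19 (SE, adjusted p = 0.262) in tumor M-MDSC. Ern1, encoding IRE1, fell in M-MDSC of spleen (-1.06 (adjusted p = 0.00102)) and tumor (-1.20 (adjusted p = 0.0208)), and had -0.71 (adjusted p = 0.0608) and -0.23 (adjusted p = 0.524) in PMN-MDSC. Eif2ak3, encoding PERK, fell in spleen M-MDSC (-0.65 (adjusted p = 0.00641)). It was also lower in tumor than in spleen in all 4 comparisons, at -2.11 (adjusted p = 1.13e-05) and -1.27 (adjusted p = 0.0166) in untreated and treated PMN-MDSC and -1.03 (adjusted p = 0.0004) and -0.92 (adjusted p = 0.0127) in M-MDSC. Atf6 fell with treatment in spleen PMN-MDSC (-0.81 (adjusted p = 0.0471)) and was higher in tumor than in spleen in treated PMN-MDSC (1.09 (adjusted p = 0.00148)).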

How the data were processed

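Total RNA of sorted MDSC and of tumor tissue was converted to libraries with a stranded low-input kit that removes ribosomal sequences. The authors mapped reads to mm10 and mouse rRNA with ContextMap (BWA inside) and deposited raw counts of fragments per gene, made by strand with featureCounts (Subread 1.4.6-p3, per the labels) on Gencode annotation, without normalization. All values here were computed from these deposited counts. GENCODE M21 (GRCm38, the build of mm10) gave a symbol, position and exon length for 53274 of 53379 identifiers. Column names gave the cell type, organ and treatment of a library, which set its group, and "G" in a column name was read as PMN-MDSC. Libraries under 1000 counts were left out (1 of 35). Of 48 pairs of libraries within groups, 0 were identical, with a chi-square per degree of freedom of 6.19 to 49.5. CPM were scaled by TMM over all 34 libraries, and FPKM are CPM per kilobase of exon.

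Each of 12 comparisons of 2 groups, and the interaction of treatment and compartment in each cell type, was fitted on its own libraries with edgeR 4.0.16 in R 4.3.3 (TMM, robust quasi-likelihood F-test, genes averaging at least 25 counts over the libraries compared). A gene was called at a Benjamini-Hochberg adjusted p below 0.05 over all genes tested, with no minimum fold. The SE is the log2 fold change divided by the square root of F. The code was tested on simulated data. Alternatives were RLE and upper-quartile scaling, no filter, DESeq2 1.42.0, the study's thresholds (adjusted p below 0.001 and a fold of at least 2), 1 fit over all groups, library totals in place of TMM, and leaving out each library. The 10 members, the gene lists and the thresholds were chosen with earlier results of these data known. All members are named, with the 2 genes of smallest adjusted p per list and comparison and the sensors Eif2ak2, Eif2ak3, Ern1 and Atf6, and for likeness to Hspa5 and Trib3 the 5 closest genes. Genes outside these were not named for their values. Promoters came from RefSeq (GRCm38.p6). The alleles of the tumor that gave the cell line are not reported here.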

Additional observations from a re-analysis of the deposited data

Results flagged for a closer look

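In groups of 4 libraries, 4 of 70 sets of member values held a library far from the other 3, where chance gives about 1 in 20. Atf4 was at 186 CPM in library 2 of untreated spleen PMN-MDSC, where the next library was at 139. Pdia4 was at 353 CPM in library 1 of untreated tumor PMN-MDSC, next to 222, and its higher level in tumor than in spleen kept its call without that library, with 1.99 on the log2 scale (adjusted p = 0.00185 by edgeR). Pdia4 was at 643 CPM in library 4 of treated spleen M-MDSC, next to 216, in the library with 18750 CPM of B cell and plasma cell markers. Trib3 was at 1.18 CPM in library 2 of untreated spleen M-MDSC, which is 3 counts, against 0 in the other 3 libraries.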

How the results depend on the processing

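No paired analysis was possible from the labels alone, because the running numbers in the column names appear in no label. The groups of the columns follow the same order as those of the titles with their mouse numbers. Columns were not assigned to mice by that order, so whether pairing by mouse changes the calls was not tested. All 45 called values of members kept their direction in each of the refits that follow, and their call in 44 under DESeq2, 44 under RLE scaling, 42 under upper-quartile scaling, 40 without a filter, 37 in 1 fit over all groups and 288 of 348 fits without 1 library. The numbers of members called changed by more than 1.5 times as follows. Upper-quartile scaling called 2 in treated against untreated spleen PMN-MDSC, where 336 of 7261 genes were called higher and 607 lower. Without a filter on low counts 3 were called in spleen PMN-MDSC, 3 in tumor PMN-MDSC and 2 in tumor M-MDSC after treatment, 1 in tumor against spleen of treated M-MDSC, 3 in the PMN-MDSC interaction and 5 in the M-MDSC interaction. The share over all genes was not computed without the filter, so these numbers have no background beside them. DESeq2 called 6 in treated against untreated spleen M-MDSC, 1 in tumor against spleen of treated M-MDSC, 2 in PMN-MDSC against M-MDSC in tumor and 1 in the PMN-MDSC interaction. In that order it called 1129 of 8827 genes higher and 907 lower, 812 and 320 of 9026, 703 and 559 of 7623, and 396 and 105 of 8047. In the first 2 of these comparisons edgeR called 942 higher and 791 lower, and 461 and 69. The study's thresholds left 0 in the 4 treatment comparisons and in PMN-MDSC against M-MDSC in tumor, 2 in tumor against spleen of untreated and 2 of treated PMN-MDSC, 1 of untreated M-MDSC, 1 in PMN-MDSC against M-MDSC in spleen, 2 in bulk tumor against PMN-MDSC and 3 against M-MDSC. Of all genes they left 0.0413% and 0.241% after treatment in spleen and tumor PMN-MDSC, and 2.47% and 0.012% in spleen and tumor M-MDSC. In the other comparisons, in the order given, they left 1.65%, 21.7%, 13%, 8.6%, 23.2%, 40.1% and 41.9%. In 1 fit over all groups 2 were called in spleen PMN-MDSC and 0 in tumor M-MDSC after treatment, 1 in tumor against spleen of treated M-MDSC and 4 in bulk tumor against M-MDSC. In that order this fit called 722 of 7261 genes higher and 975 lower, 493 and 320 of 8360, 934 and 422 of 9026, and 4208 and 3515 of 11022. The numbers in this part hold Sdf2l1 in tumor against spleen of treated PMN-MDSC and Trib3 in both bulk tumor comparisons, which averaged under 25 counts in 1 group. Leaving them out, a choice made after seeing the data, gave the 5 of 8 and, of 9, the 2 higher and 5 lower and the 3 higher and 3 lower given above in place of 6, 8 and 7. Why these numbers differ was not tested, except that stricter thresholds can only remove calls.

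Without 1 library in turn, 1 to 4 members were called in spleen M-MDSC, 0 to 1 in spleen PMN-MDSC, 0 to 1 in tumor PMN-MDSC and 0 to 1 in tumor M-MDSC after treatment, 0 to 1 in tumor against spleen of treated M-MDSC, 3 to 6 and 1 to 2 in PMN-MDSC against M-MDSC of spleen and tumor, 5 to 8 in bulk tumor against PMN-MDSC and 0 to 1 in the PMN-MDSC interaction. Shares over all genes were computed only for treatment in spleen M-MDSC without treated library 4, at 11.6% higher and 8.87% lower. The sign of values that were not called turned for Herpud1 in treated against untreated spleen PMN-MDSC (0.02 to -0.16 with upper-quartile scaling and -0.036 in 1 fit over all groups), Xbp1 in tumor against spleen of treated PMN-MDSC (-0.07 to 0.18 with upper-quartile scaling), Hspa5 in PMN-MDSC against M-MDSC of spleen (-0.01 to 0.061 with RLE scaling, 0.022 without a filter, 0.061 with DESeq2 and 0.046 in 1 fit) and Hspa5 in bulk tumor against PMN-MDSC (-0.01 to 0.031 with RLE scaling, 0.28 with upper-quartile scaling, 0.24 without a filter, 0.031 with DESeq2 and 0.018 in 1 fit). Without 1 library, signs turned and the lowest and highest log2 fold changes were as follows: in treated against untreated tumor M-MDSC Atf4 (-0.29 to 0.018), Herpud1 (-0.11 to 0.55), Hspa5 (-0.049 to 0.25), Sdf2l1 (-0.36 to 0.20), in PMN-MDSC against M-MDSC in tumor Atf4 (-0.21 to 0.015) and Hspa5 (-0.16 to 0.083), in the M-MDSC interaction Ddit3 (-0.21 to 0.057) and Herpud1 (-0.42 to 0.30), in treated against untreated spleen PMN-MDSC Ddit3 (-0.15 to 0.54), Herpud1 (-0.10 to 0.19), Xbp1 (-0.32 to 0.24), in treated against untreated tumor PMN-MDSC Dnajb9 (-0.062 to 0.51), in bulk tumor against PMN-MDSC Dnajb9 (-0.20 to 0.20) and Hspa5 (-0.18 to 0.17), in treated against untreated spleen M-MDSC Herpud1 (-0.022 to 0.52) and Xbp1 (-0.025 to 0.38), in tumor against spleen untreated PMN-MDSC Herpud1 (-0.30 to 0.0090), in bulk tumor against M-MDSC Herpud1 (-0.042 to 0.31) and Hspa5 (-0.084 to 0.27), in tumor against spleen treated M-MDSC Hsp90b1 (-0.34 to 0.28), Hspa5 (-0.092 to 0.29), Pdia4 (-0.50 to 0.44), in PMN-MDSC against M-MDSC in spleen Hspa5 (-0.20 to 0.24), in the PMN-MDSC interaction Xbp1 (-0.037 to 0.46), in tumor against spleen treated PMN-MDSC Xbp1 (-0.37 to 0.12). The causes were not tested.

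Upper-quartile scaling shifted the median of all genes by -0.175 (spleen PMN-MDSC treatment), 0.16 and 0.244 (tumor against spleen in untreated and treated PMN-MDSC), -0.15 (untreated M-MDSC), -0.246 (PMN-MDSC against M-MDSC in spleen), 0.306 and 0.206 (bulk tumor against PMN-MDSC and M-MDSC). It moved the share of calls that were higher from 52.5% to 35.6% in spleen PMN-MDSC treatment, from 52.6% to 64.4% and 55.2% to 39.3% in tumor against spleen of treated PMN-MDSC and untreated M-MDSC, from 48.1% to 35.5% in PMN-MDSC against M-MDSC of spleen and from 52% to 62.3% in bulk tumor against PMN-MDSC. With library totals in place of TMM, 13 of 90 group means moved by more than 1 SD. Depth limits Trib3 and, in treated spleen PMN-MDSC, Sdf2l1.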

Other observations

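Between bulk tumor and the untreated tumor MDSC, the 7 stress sensors and eIF2alpha kinases differed in both directions. Of them, 1 was called higher and 4 lower in bulk tumor than in PMN-MDSC, and 2 higher and 4 lower than in M-MDSC, where 25% and 44.2%, and 23.6% and 43%, of the genes that averaged at least 25 counts in both groups were. Atf6 had log2 fold changes of -1.44 ± 0.15 (SE, adjusted p = 3.85e-06) and -1.78 ± 0.16 (SE, adjusted p = 1.62e-06), and Ern1, the gene of the kinase that splices Xbp1, -1.05 (adjusted p = 0.000139) and -1.78 (adjusted p = 2.55e-06), beside the lower Xbp1 level given above. Eif2ak2 (PKR), which senses double-stranded RNA, was the gene higher in both, at 1.74 (adjusted p = 0.00132) and 1.13 (adjusted p = 0.011). Eif2ak3, encoding PERK, was higher than in M-MDSC, at 1.08 (adjusted p = 0.00237), and had 0.44 (adjusted p = 0.126) against PMN-MDSC. The stress-induced factors Atf3 and Cebpb were lower in bulk tumor, at -6.21 and -5.37 against PMN-MDSC and -6.95 and -5.26 against M-MDSC. Bulk tumor was lysed directly without dissociation or sorting, so tissue and preparation cannot be told apart. Of the other ER chaperones and folding enzymes that met this condition, 5 of 15 were called higher and 3 lower against PMN-MDSC, and 2 of 16 higher and 4 lower against M-MDSC, beside the same shares. Ero1lb, an ER oxidase, had -2.46 and -2.74.

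Among the other genes of the pathway, Atf3 in PMN-MDSC had a fitted difference between tumor and spleen in the treatment effect of 2.43, given as a description because its treated spleen libraries held 3, 18 and 9 counts, and had -0.42 (adjusted p = 0.274) after treatment in tumor PMN-MDSC. In untreated tumor, Slc7a11 was higher in PMN-MDSC than in M-MDSC, at 1.82 (adjusted p = 0.000234), and Ern1 and Eif2ak2 were lower, at -0.80 (adjusted p = 0.00436) and -0.68 (adjusted p = 0.015).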
